A study of Mus musculus with 8 samples.

Results

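Actb and Tuba1b, the genes for β-actin and for an α-tubulin, were the 2 cytoskeleton genes among the 15 genes that the array files name by a RefSeq accession, on an array of 60930 probes. Their probes were picked out by those accessions, NM_007393 for Actb and NM_011654 for Tuba1b. Both were brighter in the salivary gland tumors than in normal glands. Actb rose 7.18-fold and Tuba1b rose 3.67-fold after scaling to the 75th percentile of each array, and the call of Tuba1b was lost without N2 or with the 13 other named genes as the scale. The signal of Actb relative to Tuba1b was 1.93-fold higher in the tumors than in the pooled normal and tumor-adjacent glands, a difference that was not past 0.05 after adjustment (exact permutation test, adjusted p = 0.0857). One of the 2 tumor-adjacent glands carried raised signals of both genes, and the other lay close to the normal glands.

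The study asked how expression differs between tumors driven by the CRTC1-MAML2 fusion and glands without a tumor. Tumors (T, 4 arrays) and tumor-adjacent glands (NAT, 2 arrays) came from mCre-CM(+) mice, bred from a fusion line made and kept in FVB/J. In these mice MMTV-Cre, active in salivary duct cells but also in other tissues such as skin, removes a stop cassette. The CAG promoter then drives CRTC1-MAML2. Normal glands (N, 2 arrays) came from mCre-CM(–) littermates, which lack the fusion transgene and by the cross also carry MMTV-Cre. The labels name no treatment, the ages and the transgenic line of the arrayed mice were not given in the sources used here, and T1 and NAT1 came from 1 mouse and T2 and NAT2 from another. The source descriptions of NAT2 and T2 contradict their titles and tissue labels, which were followed here, and results without NAT2 are given beside the comparisons with NAT. Leaving out T2 gave 2.84 for Actb and 1.98 for Tuba1b in T versus N and 1.91 and 1.09 in T versus NAT, as log2 differences, and changed no call.

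β-actin polymerizes into the filaments that give a cell its cortex, its shape and its means of moving. Tuba1b encodes one of several near-identical α-tubulins, which pair with β-tubulin to build microtubules, the tracks of intracellular transport and the fibers of the mitotic spindle. Both proteins are made in nearly every cell type, so both genes are widely used as housekeeping references, and β-actin or a tubulin served as the loading control on Western blots of the study. The mRNA levels of both genes follow the state of the cytoskeleton: free actin monomers restrain the coactivator that drives Actb through serum response factor, and free tubulin triggers decay of tubulin mRNA. Because actin and tubulin genes have close relatives, a probe for one may also take up transcripts of another, and this was not tested here because the probe sequences were not used here.

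Of the 2 genes, the RefSeq promoter table used here holds 1, Tuba1b, whose promoter is printed because the signals of Tuba1b and Actb moved together across the arrays and because the fusion keeps the CREB-binding part of CRTC1, so that cAMP response elements were of interest. The 250 bases before the RefSeq start of Tuba1b lie on the minus strand of GRCm38.p6 at chr15:98934391-98934640, and capitals mark the GC box (GGGCGG, or CCGCCC on the other strand).
Tuba1b promoter: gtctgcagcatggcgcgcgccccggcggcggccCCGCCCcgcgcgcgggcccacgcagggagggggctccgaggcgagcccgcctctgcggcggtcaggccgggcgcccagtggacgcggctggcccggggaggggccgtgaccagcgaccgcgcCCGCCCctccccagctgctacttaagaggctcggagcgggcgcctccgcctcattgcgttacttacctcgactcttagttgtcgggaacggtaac
The window held 75.6% G and C, against a median of 52.4% over the 32851 RefSeq promoter windows of the same length, and 96.4% of those windows had a lower share. It held 2 GC boxes, a motif found on either strand in 32.7% of all windows. It held no CCAAT (present in 33.8% of windows), no TATAAA (12.4%), no CACGTG (6.02%) and no full cAMP response element TGACGTCA (1.55%). The core TGACG, which every full element contains, was also absent and occurs in 17.8% of windows. These letters describe the window and say nothing of which factors bind there.

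Each array carried 20 spots of the Actb probe and 20 of the Tuba1b probe, and every one of them was well above background on every array, with 0 saturated spots. After outlier spots were left out, 150 of 160 Actb spots and 156 of 160 Tuba1b spots remained. The spots of 1 array agreed closely, with an SD of log2 signal between 0.0239 and 0.0725 for Actb and between 0.0319 and 0.117 for Tuba1b. Spots of 1 array are technical repeats, so the arrays, not the spots, were the replicates of a group, and their number limits the precision.

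Actb had a processed intensity, as the geometric mean over its spots, of 2836 on N1 and 2052 on N2. The same intensity was 12388 on NAT1 and 3969 on NAT2. In the tumors it was 40189 on T1, 50320.2 on T2, 37268 on T3 and 27479.5 on T4. Before any scaling the dimmest Actb spot in a tumor, at 25824, was thus brighter than the brightest in any other gland, at 12848. The gap was 1.01 on the log2 scale. By array means, every tumor lay above every other gland for 47.8% of probes without scaling. NAT1 lay between the normal glands and the tumors, and NAT2 was nearer to the normal glands.

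Tuba1b had a processed intensity of 24270.2 on N1 and 11677 on N2, so the normal glands differed from each other 2.08-fold before scaling, against 1.38-fold for Actb. It was 78869 on NAT1 and 28815 on NAT2. In the tumors it was 130553 on T1, 142568 on T2, 140763 on T3 and 128079 on T4. The 4 tumors were thus close to each other before scaling, with an SD of log2 intensity of 0.077 for Tuba1b against 0.36 for Actb. The tumors' Tuba1b spots started at 119466 and again lay wholly above the brightest spot of the other glands, which was on NAT1 at 81898.

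**Figure D1:**
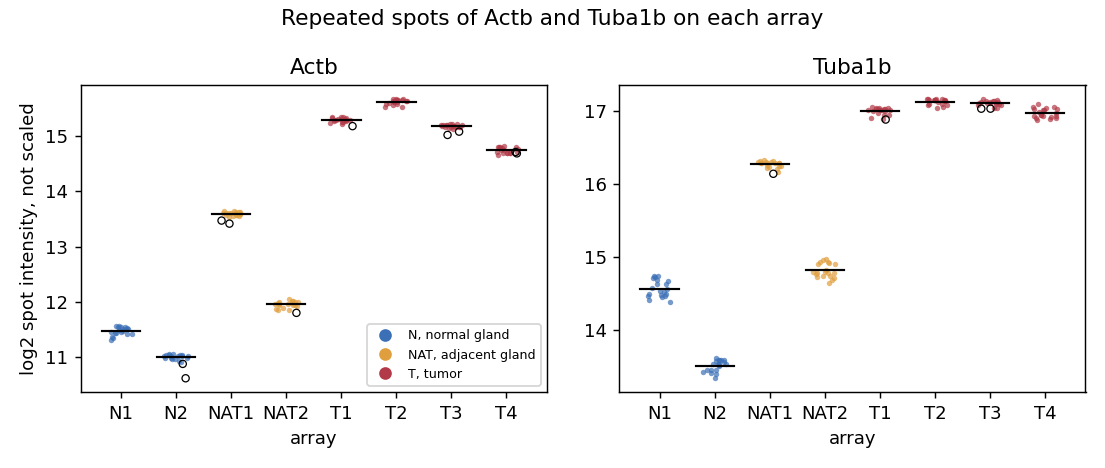
Log2 processed intensity, not scaled, of the Actb and Tuba1b spots on the 8 arrays in N, NAT and T. Open circles are outlier spots, and bars are array means without them. Small filled points are the remaining spots, and those of the tumors begin at an intensity of 25824 for Actb and 119466 for Tuba1b. Both lie above the highest spots of the other glands, at 12848 and 81898. By array means, every tumor lay above every other gland for 47.8% of probes without scaling.

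The arrays differed in their general brightness, and the tumors were the brightest. The 75th percentile of log2 signal over all probes ran from 6.67 to 7.13 in N, from 7.48 to 7.56 in NAT and from 7.73 to 8.42 in T, and it was subtracted from each array to give the scaled log2 signal. The scanner's GAPDH control spots also moved with the groups: the 5′ spots minus the 3′ spots, in log2 signal, gave -3.07 in N1, -3.58 in N2, -2.38 in NAT1, -2.89 in NAT2, and -0.80 to -0.34 in T. This 5′ to 3′ balance, a sign of RNA integrity and labelling, was highest in T and higher in NAT1 than in NAT2, as the signals of both genes were, and its part in the results was not tested. Bulk tissue was measured, so more cells with a high level of a transcript and more transcript per cell cannot be told apart. The remaining probes are not paired with gene names in the files used here, so the other actin and tubulin genes and the markers of acinar, ductal and stromal cells were not examined.

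On the scaled log2 scale Actb was at 4.34 in N1 and 4.33 in N2. It was at 6.12 in NAT1 and 4.39 in NAT2. It was at 7.36 in T1, 7.20 in T2, 7.14 in T3 and 7.02 in T4. All 4 tumors thus lay above all 4 other glands, as they did for 28.2% of the probes with a value on every array. The means were 4.33 ± 0.0071 (SD, n = 2) in N, 5.26 ± 1.22 (n = 2) in NAT and 7.18 ± 0.14 (n = 4) in T.

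Tuba1b was at 7.44 in N1 and 6.84 in N2 on the same scale. It was at 8.79 in NAT1 and 7.25 in NAT2. It was at 9.06 in T1, 8.70 in T2, 9.05 in T3 and 9.24 in T4. After scaling, NAT1 therefore lay above T2, the tumor with the highest 75th percentile, and T and NAT overlapped. Without scaling every tumor lay above every other gland, as for 47.8% of probes. The means were 7.14 ± 0.42 (SD, n = 2) in N, 8.02 ± 1.09 (n = 2) in NAT and 9.01 ± 0.22 (n = 4) in T. These scaled levels rank arrays for 1 probe and do not set Tuba1b above Actb in abundance, since probes differ in brightness.

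Both genes passed the cutoff of a fold change of ≥ 2 and an FDR of ≤ 0.05 in T versus N, where 27.5% of the 47176 probes tested were called higher and 48.6% were called in either direction. Actb rose by 2.84 on the log2 scale (SE 0.45, 95% CI 1.81 to 3.87), which is 7.18-fold (3.52 to 14.6), with an FDR of 0.0014 by limma. Its change exceeded that of 91.8% of tested probes. Tuba1b rose by 1.88 (SE 0.44, 95% CI 0.86 to 2.89), which is 3.67-fold (1.81 to 7.44), with an FDR of 0.00865 by limma, and its change exceeded that of 82.2% of probes. With the N2 array left out the Tuba1b difference was 1.58 with an FDR of 0.0745, and the call was lost. The median probe changed by 0.29, so that Actb stood 2.55 and Tuba1b 1.59 above it.

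In T versus NAT, Actb passed the cutoff and Tuba1b did not, against 20.5% of probes called higher. Actb rose by 1.92 (SE 0.45, 95% CI 0.89 to 2.95), a fold change of 3.78, with an FDR of 0.0119 by limma, while the methods' t-test gave an adjusted p of 0.0751 and no call. Tuba1b differed by 0.99 (SE 0.44, 95% CI -0.029 to 2.01), a fold change of 1.99, with an FDR of 0.112, and its interval includes both no change and a change larger than that estimated for Actb. These estimates depended on which adjacent gland was kept. Without NAT2 the Actb difference was 1.06 with an FDR of 0.0681 and that of Tuba1b was 0.22 with an FDR of 0.735, by limma. Without NAT1 the Actb difference was 2.78 with an FDR of 0.00172 and that of Tuba1b was 1.76 with an FDR of 0.0147, by limma. With the replicate number as a block, the Actb difference was 2.02 with an FDR of 0.0508 by limma. This block joins T1 to NAT1 and T2 to NAT2 of the same mouse, and also N1 and N2 to the mouse of that number. T3 and T4 stand alone in their blocks, so the blocked difference rests on T1 and T2.

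Within the mice that gave both tissues, the tumor was above its own adjacent gland for both genes. Actb was higher by 1.24 in T1 than in NAT1 and by 2.80 in T2 than in NAT2, in scaled log2 signal. Tuba1b was higher by 0.27 in T1 than in NAT1 and by 1.45 in T2 than in NAT2. Both differences were thus larger in the second mouse, and with 2 mice no test was made of it.

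In NAT versus N, limma called neither gene and none of the 47176 probes (0%), and the methods' t-test, adjusted the same way, also called 0, while 1994 probes (4.23%) had an unadjusted limma p under 0.05. Actb differed by 0.92 (95% CI -0.26 to 2.11), with an unadjusted p of 0.111 and an FDR of 0.878 by limma. Tuba1b differed by 0.89 (95% CI -0.29 to 2.06), with an unadjusted p of 0.121 and an FDR of 0.878 by limma. These intervals reach rises of 4.32-fold for Actb and 4.18-fold for Tuba1b, so the groups were not shown to be alike. Without NAT2 the differences were 1.79 for Actb (FDR 0.149) and 1.66 for Tuba1b (FDR 0.221), and without NAT1 they were 0.059 and 0.12 (FDR 1.00 for each), all by limma.

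**Figure D2:**
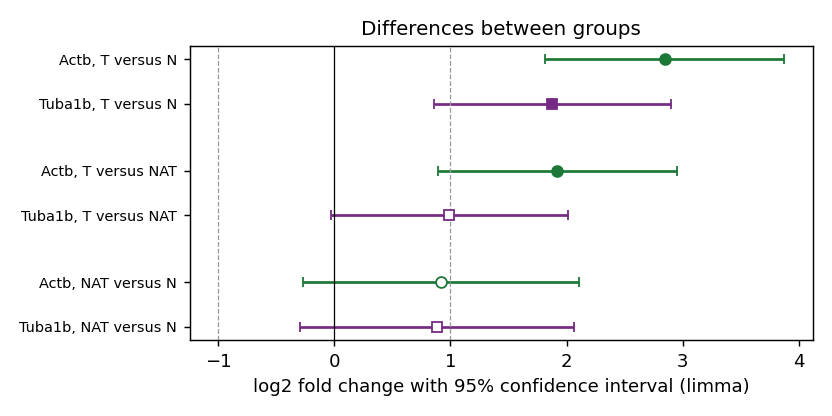
Log2 fold changes of Actb and Tuba1b from limma with 95% confidence intervals for T versus N, T versus NAT and NAT versus N. Filled points passed the cutoff and open points did not, and dashed lines mark a 2-fold change: Actb is filled at 2.84 and 1.92, Tuba1b is filled at 1.88 and open at 0.99, and both NAT versus N points are open.

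The spread within groups differed between the genes and between the groups. Actb differed by 0.010 between N1 and N2, a smaller difference than that of nearly all probes, since 1.22% of the 47087 probes with a value on every array had a smaller one and the median was 0.41. Tuba1b differed by 0.60 between the same glands, and 64.6% of probes differed less. Among the 4 tumors the SD was 0.14 for Actb and 0.22 for Tuba1b, against a median SD of 0.41, and 6.05% and 17.9% of probes had a lower SD. These spreads depended on the scaling. Between N1 and N2 Actb differed by 0.21 after quantile normalization, by 0.097 relative to the mean of the 13 other named genes and by 0.47 without scaling, and Tuba1b differed by 0.40, 0.49 and 1.06. Among the tumors the SD of Actb was 0.25, 0.24 and 0.36 under the same 3 settings and that of Tuba1b was 0.079, 0.083 and 0.077. Actb thus differed less than Tuba1b between the normal glands under all 4 settings, whereas among the tumors its SD was the lower of the 2 with the 75th percentile and the higher under the other 3.

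Between the adjacent glands both genes varied more than most probes. NAT1 was above NAT2 by 1.73 for Actb and by 1.54 for Tuba1b, where the median probe differed by 0.54 in either direction, and 91.6% and 89.0% of probes differed less. Taking N as 0 and T as 1 by their means, NAT1 stood at a fraction of 0.63 for Actb and 0.88 for Tuba1b, and NAT2 at 0.021 and 0.062. Over the 12957 probes called higher in T versus N with a value on every array, the median fraction was 0.36 for NAT1 and 0.096 for NAT2, and 81.4% of these probes had a lower NAT1 fraction than Actb and 94.7% a lower one than Tuba1b. Among the other named genes called higher in that comparison and well above background on all arrays, the NAT1 fraction ran from 0.29 for Tbp, the TATA-binding protein, to 0.48 for Rpl13a, a protein of the large ribosomal subunit, below both Actb and Tuba1b. The cell makeup of NAT1 was not examined.

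The arrays lay on 1 slide with N1, N2, NAT1 and T1 in its first row and NAT2, T2, T3 and T4 in its second row, so the position on the slide was compared too. Within the first row T1 exceeded the mean of N1 and N2 by 3.03 for Actb and 1.92 for Tuba1b, and NAT1 exceeded that mean by 1.79 and 1.66. T1 exceeded NAT1 in that row by 1.24 for Actb and 0.27 for Tuba1b, and within the second row the mean of T2, T3 and T4 exceeded NAT2 by 2.72 and 1.74. The T minus NAT difference was thus above 0 in each row and smaller in the first, and the second row held no N array. With the row as a term in limma, the T versus N difference was 3.47 for Actb and 2.37 for Tuba1b. It was 2.13 and 1.15 in T versus NAT and 1.34 and 1.21 in NAT versus N, and no call changed.

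The ratio of Actb to Tuba1b within an array does not depend on any scaling that shifts a whole array. Its log2 value was -3.10 in N1 and -2.51 in N2. It was -2.67 in NAT1 and -2.86 in NAT2. It was -1.70 in T1, -1.50 in T2, -1.92 in T3 and -2.22 in T4. Every tumor was thus above every other gland. The ratio of Actb to a probe was separated in this way for 59.3% of probes with a value on every array. NAT1, in which both genes were raised, kept a ratio between those of the normal glands. The mean was -1.84 ± 0.31 (SD, n = 4) in T and -2.78 ± 0.25 (n = 4) in N and NAT together, a difference of 0.95 or 1.93-fold (two-sided exact permutation test, p = 0.0286, the smallest that 70 splits allow, and 0.0857 after Benjamini-Hochberg adjustment over the 3 ratios tested). After adjustment the difference was therefore not past 0.05. Quantile normalization, which is not a shift, gave a difference of 0.75 at the same unadjusted exact permutation p of 0.0286. Restricting the split to replicate blocks 1 and 2 leaves out T3 and T4. The difference was then 1.18 with an exact permutation p of 0.111, the smallest possible there. Without N1 the difference was 0.84 with an exact permutation p of 0.0571. It was 0.92 without NAT2 and 0.84 without T2, each with an exact permutation p of 0.0286.

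**Figure D3:**
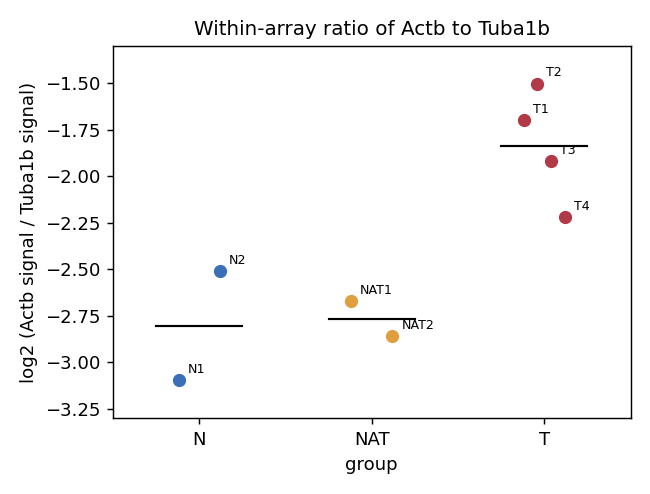
Log2 ratio of the Actb signal to the Tuba1b signal within each array, for N, NAT and T. Points are arrays and bars are group means: the 4 tumors lie between -2.22 and -1.50, above the other 4 glands, which lie between -3.10 and -2.51. The ratio of Actb to a probe was separated in this way for 59.3% of probes.

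The 13 other genes named in the files, most of them common reference genes, gave another yardstick, although Ldhal6b among them was well above background on the 4 tumors and on no N or NAT array. By limma 6 of the 12 well above background on all arrays were themselves called higher and 0 lower in T versus N, against 27.5% and 21% of all tested probes, with a median log2 change of 1.02 and a range of -0.96 to 4.58. In T versus NAT 6 of the 12 were called higher and 0 lower, against 20.5% and 15.9% of tested probes. Actb relative to the mean of all 13 was at a log2 ratio of 0.62 in N1, 0.72 in N2, 1.89 in NAT1 and 0.68 in NAT2. It was at 2.16, 2.41, 2.06 and 1.84 in T1 to T4. NAT1 thus reached the range of the tumors, and the T mean was above that of N and NAT by 1.14 (two-sided exact permutation test, p = 0.0571, adjusted p = 0.0857). Over the 12 genes without Ldhal6b the difference was again 1.14 (exact permutation p = 0.0571). Without NAT1 the difference over the 13 was 1.45, at the smallest p that the exact permutation test allows, 0.0286, and without NAT2 it was 1.04 (exact permutation p = 0.0571). Tuba1b relative to the same mean was at 3.72 in N1, 3.23 in N2, 4.56 in NAT1 and 3.54 in NAT2, and at 3.86, 3.92, 3.97 and 4.06 in T1 to T4. The T mean was above that of N and NAT by 0.19 (exact permutation p = 0.543), again by 0.19 over the 12 genes (exact permutation p = 0.571), by 0.46 without NAT1 (exact permutation p = 0.0286) and by 0.12 without NAT2 (exact permutation p = 0.657). By this yardstick NAT1 lay above every tumor, and the other 3 glands lay below every tumor.

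Set in turn against the 12 of these genes that were well above background on all arrays, Actb was higher in every tumor than in every other gland for 6, lower for 3 and overlapping for 3. Tuba1b was higher for 3, lower for 3 and overlapping for 6. Against all probes with a value on every array, Actb was higher in every tumor for 59.3% and lower for 2.44%, and Tuba1b was higher for 33.7% and lower for 6.3%. The 3 genes that both Actb and Tuba1b fell below were Gusb, a lysosomal enzyme, Hsp90ab1, a chaperone, and Rpl13a. Relative to B2m, the light chain of MHC class I, Nono, an RNA-binding protein of paraspeckles, and Tfrc, the transferrin receptor, both were higher in every tumor. Choosing one reference gene or another thus turned the direction of both cytoskeleton genes.

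**Figure D4:**
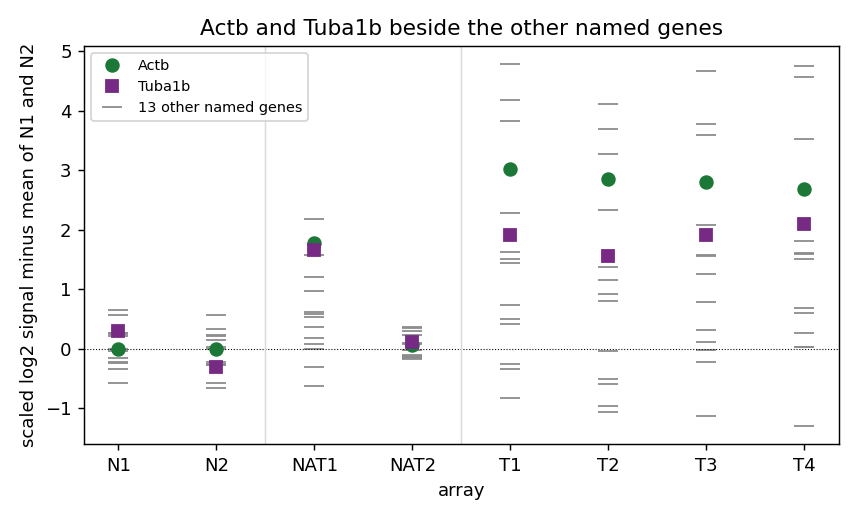
Scaled log2 signal of Actb (circles), Tuba1b (squares) and the 13 other named genes (dashes) on each array, minus the mean of N1 and N2 for that gene. Actb and Tuba1b lie 1.79 and 1.66 above that mean in NAT1, and in the tumors they lie inside the range of the other named genes.

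The named genes whose scaled signal followed Actb most closely over the 8 arrays were Rpl13a (Pearson r = 0.99), Hsp90ab1 (0.97) and Ldhal6b (0.97). Those closest to Tuba1b were Ldhal6b (0.99), Gapdh, a glycolytic enzyme (0.95), and Rpl13a (0.94). The place of Ldhal6b, a lactate dehydrogenase-like gene, rests on N and NAT values that were not well above background, and without it the third gene was Hprt, a purine salvage enzyme, for Actb (0.96) and Hsp90ab1 for Tuba1b (0.93). Actb and Tuba1b themselves correlated at 0.95, higher than 94.4% of tested probes did with Actb and 98.0% with Tuba1b. The least alike were Nono (-0.81 with both), B2m (-0.36 with Actb and -0.38 with Tuba1b) and Gk, glycerol kinase (-0.40 and -0.32). These signs depended on the scaling: without scaling Nono was at 0.073 with Actb and 0.046 with Tuba1b, B2m at 0.75 and 0.71, and Gk at 0.65 and 0.66. The coefficients describe arrays that share a slide and fall into groups, so they mostly restate the group differences and carry no test.

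The scaling moved the T versus N difference of both genes and decided the call of Tuba1b. Quantile normalization gave 2.37 for Actb and 1.56 for Tuba1b, normexp background correction gave 3.11 and 2.19, and no scaling gave 3.97 and 3.01, and all were called. Scaled to the mean of the 13 other named genes, which was itself higher in T, the differences were 1.45 for Actb, still called, and 0.48 for Tuba1b, which was not (FDR 0.278 by limma). In T versus NAT that scaling left Actb at 0.84 (FDR 0.108 by limma) and turned Tuba1b to -0.094. The median of all tested probes moved with these choices, from -1.11 with the named genes as the scale to 1.42 without scaling in T versus N, and so did the share of called probes that were higher, which was 56.7% with the 75th percentile, 15.5% with the named genes and 86.2% without scaling. Relative to that median, Actb stood at 2.55 and Tuba1b at 1.59 with the 75th percentile or any other shift of whole arrays, which leaves this value as it is by construction, at 2.26 and 1.45 with quantile normalization and at 3.50 and 2.58 with normexp.

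**Figure D5:**
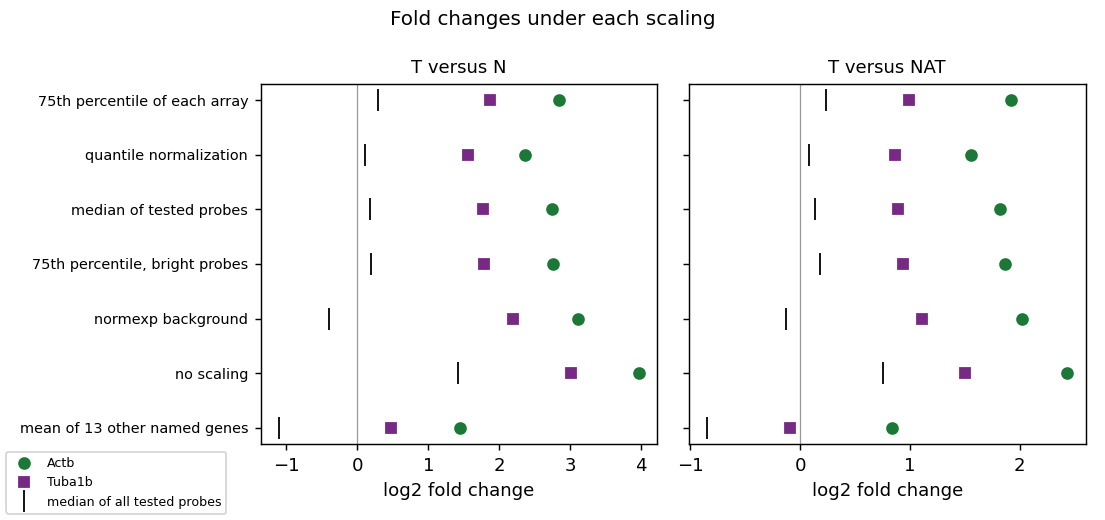
Log2 fold changes of Actb (circles) and Tuba1b (squares) in T versus N and T versus NAT under 7 ways of scaling the arrays, with the median of all tested probes as a tick. Actb stays above 0 throughout, from 1.45 to 3.97 in T versus N, while Tuba1b in T versus NAT is -0.094 when scaled to the 13 other named genes and above 0 under the other scalings.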

How the data were processed

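Expression was measured on 8 one-color arrays. The authors deposited the scanner output (Agilent Feature Extraction 11.0.1.1, per the labels) as background-corrected spot intensity on a linear scale, with spot flags. They also deposited log2 values of 42830 probes, a table that holds none (0) of the 15 named probes and was not used. Per the labels, ribosomal RNA was removed and the rest labelled by random priming, which the labels describe as without 3′ bias.

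From the scanner files, control and outlier spots were left out, spots of a probe were averaged as log2 intensity, and each array's 75th percentile was subtracted. A probe entered the test when 2 or more arrays had it well above background, which left 47176. N, NAT and T were fitted in 1 model by limma 3.58.1 (R 4.3.3), and p-values were adjusted by Benjamini-Hochberg over all 47176 within a comparison. Ratios were tested by two-sided exact permutation in Python 3.11.15. The limma step was tested on simulated data.

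The members and lists were chosen with earlier results of these data known. Named beside Actb and Tuba1b were the 3 most and the 3 least correlated of the other 13 genes with an accession, plus genes singled out for a count after their values were seen. All 15 accessions matched a symbol. Promoters came from RefSeq.

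Samples were grouped by title. NAT1 and T1, and NAT2 and T2, are paired by mouse per the paper and the labels, and N1 and N2 are each a littermate of the mouse of that number, per the labels. Deviations from the group means correlated at -0.0949 for NAT1 and T1 and -0.249 for NAT2 and T2. They correlated at 0.021 for N1 and T1 and 0.078 for N2 and T2. The value of 0.149 for N1 and NAT1 recurs for N2 and NAT2 by construction, since N and NAT hold 2 arrays each. Alternatives were other scalings, background corrections, filters, spot summaries, sample sets, blocks and tests, and leaving out each array.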

Additional observations from a re-analysis of the deposited data

How the results depend on the processing

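Over 9 results and 200 alternatives, 183 kept their direction and their side of the threshold and 17 did not, and the cause was not tested. In T versus NAT, Actb was not called with the 13 named genes as the scale (0.84), with the 12 of them well above background on all arrays, a choice made after seeing the data (0.83), with the fixed replicate block (2.02) or by the methods' t-test after adjustment (1.92). Tuba1b in T versus N was not called with the 13 (0.48) or the 12 genes (0.49) as the scale. In T versus NAT it turned to -0.094 and -0.10 under these scalings and was called without scaling (1.51). The log2 ratio of Actb to the 13 genes was 1.35 and past an unadjusted 0.05 with normexp. That of Actb to Tuba1b, past it unadjusted alone, was 1.18 and not past it within replicate blocks without T3 and T4. The replicate blocks changed no other call. Leaving out each array gave Actb 2.78 to 2.90 in T versus N, 1.06 to 2.78 in T versus NAT and 0.059 to 1.79 in NAT versus N. It gave Tuba1b 1.58 to 2.18, 0.22 to 1.76 and 0.12 to 1.66. It gave ratios of 0.84 to 1.08 for Actb over Tuba1b, 1.02 to 1.45 for Actb over the 13 genes and 0.016 to 0.46 for Tuba1b over them. NAT versus N was not called under any alternative run. The deposited log2 table, which lacks both probes, was not run, and neither was a slide or scan block, since there was 1 slide.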
